A study of Mus musculus with 4 samples.

Results

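The 10 genes described here are the transcription factor genes Sox9, Sox5 and Sox6, which direct cartilage formation, and 7 genes of cartilage matrix, Col2a1, Col9a1, Col10a1, Acan, Comp, Matn3 and Chad. They were taken by gene symbol from 19938 genes that the array annotation names by a single symbol, and each of the 10 was measured by 1 feature. The cells were MC3T3-E1, an established line of pre-osteoblasts from the calvaria of C57BL/6 mice, kept in proliferation medium alone (control) or with 100 µM citalopram added. Citalopram is a selective serotonin reuptake inhibitor (SSRI). RNA was collected on day 3 or day 7, and 1 array was run for each of the 4 groups. A difference between a pair of arrays therefore has no replicate check, and none is given a p-value. The deposited expression values are taken to be on a log2 scale from their range, 3.90 to 15.5, since no source used here states the base.

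In developing cartilage, SOX9 switches on the chondrocyte programme, and SOX5 and SOX6, which bind DNA through the same kind of HMG box but have no activating domain of their own, assist it at the enhancers of matrix genes. Type II collagen, aggrecan, type IX collagen, matrilin 3 and COMP make up much of the matrix that results, and type X collagen is made when chondrocytes become hypertrophic. SOX9 is also made by the mesenchymal progenitors that osteoblasts and chondrocytes share, so its transcript alone does not mark a chondrocyte.

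SOX proteins recognise ACAAAG and close variants of these letters, of which ACAATG was searched too. RefSeq's promoter table (GRCm38.p6) held entries for 7 of the 10 genes. Shown here are the 250 bases before the start for Sox5, Sox6 and Col10a1, the 3 of these 7 with a match to either motif. The windows of Col9a1, Acan, Matn3 and Chad held neither SOX motif and are not shown. Each is written 5′ to 3′ on the gene's strand, with capitals for either SOX motif and for the TATA-box letters TATAAA, searched on both strands. No capitals of one motif overlap those of another. The Sox5 window is chr6:143947107-143947356 on the minus strand. Of the 6 listed starts of Sox6, the most upstream is shown, chr7:116038745-116038994 on the minus strand. The Col10a1 window is chr10:34389731-34389980 on the plus strand.
Sox5: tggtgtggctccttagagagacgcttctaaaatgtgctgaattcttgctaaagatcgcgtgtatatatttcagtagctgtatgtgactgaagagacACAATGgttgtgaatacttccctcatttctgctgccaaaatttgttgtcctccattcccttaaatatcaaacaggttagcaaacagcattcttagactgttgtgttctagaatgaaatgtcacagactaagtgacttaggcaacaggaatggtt
Sox6: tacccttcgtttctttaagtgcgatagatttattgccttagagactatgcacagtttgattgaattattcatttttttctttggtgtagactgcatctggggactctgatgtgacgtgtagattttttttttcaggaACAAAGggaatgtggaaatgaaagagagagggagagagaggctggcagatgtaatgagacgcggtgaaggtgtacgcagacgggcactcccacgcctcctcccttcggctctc
Col10a1: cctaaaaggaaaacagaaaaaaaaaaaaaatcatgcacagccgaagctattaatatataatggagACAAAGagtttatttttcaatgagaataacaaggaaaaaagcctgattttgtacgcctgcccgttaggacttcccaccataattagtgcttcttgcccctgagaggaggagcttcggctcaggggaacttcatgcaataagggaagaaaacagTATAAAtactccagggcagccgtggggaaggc
Counting back from the start, ACAATG lay at bases 154 to 149 in Sox5, and ACAAAG lay at bases 113 to 108 in Sox6 and 185 to 180 in Col10a1. TATAAA lay at bases 32 to 27 in Col10a1. In windows not shown, it also lay at bases 28 to 23 in Chad and 225 to 220 in the most downstream Sox6 window. Among 32851 promoter windows of this length, 16.5% held the first SOX motif on either strand, 10.7% its variant and 25.2% at least either of them. The TATA-box letters lay in 12.4% of the windows, so these matches are common. These are shares of windows, and Sox6 had 6 windows in which a match could fall. The count of genes with a match therefore cannot be set against them. A match describes the letters of the window and shows no binding.

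Expression of the 10 genes was uneven. A floor was set on each array at the 40th percentile of its named genes, which fell between 5.95 and 6.01. Sox9, Sox5, Sox6, Col2a1 and Col9a1 lay above it on all 4 arrays, Col10a1 reached it only in control at day 3, and Acan, Comp, Matn3 and Chad lay below it throughout. The regulators and the main collagen of the chondrocyte programme were thus above the floor, and most of the other matrix genes were not. Passing this floor was common: 11564 of all 19938 named genes lay above it on all 4 arrays.

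**Figure D1:**
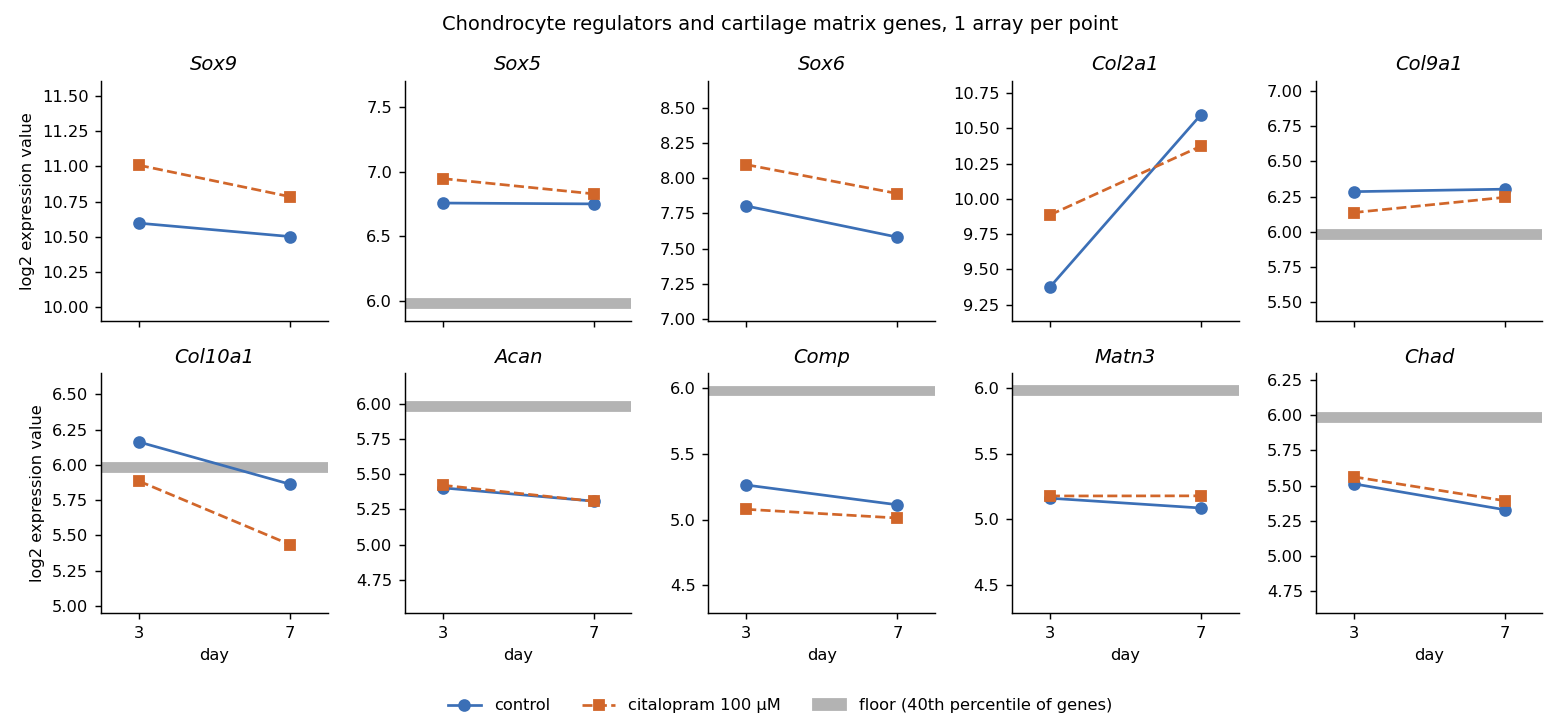
Log2 expression value (y axis, a different starting point in each panel) against day (x axis) for the 10 genes, with circles for control and squares for 100 µM citalopram, 1 array per point; the grey band spans the floors of the 4 arrays, 5.95 to 6.01. The citalopram points of Sox9, Sox5 and Sox6 lie above the control points at both days, the Col2a1 lines cross, and Acan, Comp, Matn3 and Chad stay below the band.

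Sox9, the regulator on which the chondrocyte fate depends, read 10.60 in control and 11.01 with citalopram at day 3, then 10.50 and 10.78 at day 7. Both citalopram arrays lay above both control arrays, by log2 differences of 0.41 and 0.28 at the matched days, or 1.33-fold and 1.22-fold. Sox6, a partner of SOX9, read 7.80 in control and 8.10 with citalopram at day 3, then 7.58 and 7.89 at day 7. Its citalopram differences, 0.29 and 0.31, were nearly equal at the 2 days, and again the citalopram arrays did not overlap the controls. Sox5, the close relative of Sox6, read 6.76 and 6.95 at day 3 and 6.75 and 6.83 at day 7. Its differences of 0.19 and 0.08 had the same sign and were smaller. After quantile normalization its day 7 difference was only 0.01.

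All 3 regulators were therefore higher with citalopram at each day, where 59.4% of all named genes were higher at day 3 and 45% at day 7. None of them reached 1.5-fold, the size used here to count a change between a pair of arrays, and of all genes above the floor 0.5% reached it in the higher direction at day 3 and 0.558% at day 7. Between the days, their control values differed by -0.09 for Sox9, -0.01 for Sox5 and -0.22 for Sox6, and their citalopram values by -0.22, -0.12 and -0.20.

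The effect of citalopram over both days was tested with limma, in an additive model of treatment and day fitted to all 12415 genes that reached the floor on any array. The model treats the 2 arrays of a treatment as replicates once day is accounted for, which leaves 1 residual degree of freedom per gene. Sox9 was higher by 0.35 ± 0.11 (SE; n = 2 arrays a group; limma's unadjusted p 0.0106, adjusted p 0.394). Sox6 was higher by 0.30 ± 0.10 (unadjusted p 0.0187, limma's adjusted p 0.433) and Sox5 by 0.13 ± 0.10 (unadjusted p 0.239, limma's adjusted p 0.810). None of the 10 genes passed the threshold of 0.05 for citalopram after Benjamini-Hochberg adjustment over all genes, and neither did any other gene (0%). After other scalings limma called 40 to 139 genes, 0 of them among the 10. At an unadjusted p under 0.05, limma found 661 genes higher and 458 lower, 9.01% of those tested, so the unadjusted values of Sox9 and Sox6 were among many. Both citalopram arrays exceeded both control arrays in 16.6% of genes, against 3 of the 6 cartilage genes that were tested.

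Col2a1, which encodes the chain of type II collagen, the main fibrillar collagen of cartilage, varied most among the 10. At day 3 it read 9.37 in control and 9.89 with citalopram, and at day 7 it read 10.60 and 10.37. The control array at day 3 was the lowest and the control array at day 7 the highest, and both day 7 arrays lay above both day 3 arrays, an order seen in 20% of genes. Between the days it was 2.34-fold higher in control (log2 difference 1.22) and 1.40-fold higher with citalopram (0.49). It was the only gene of the 10 past 1.5-fold in any comparison between a pair of arrays. This size was reached in the higher direction at day 7 by 1.16% of genes in control and by 2% with citalopram.

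Over both treatments Col2a1 rose from day 3 to day 7 by 0.86 ± 0.16 (SE; n = 2 arrays a day; 95% interval 0.48 to 1.23; limma's adjusted p 0.0397), 1.81-fold. It was the only one of the 6 tested genes that passed, where limma called 2.8% of all genes for day and 1.31% in the higher direction. The call was close to the threshold: limma's adjusted p was 0.0758 without a floor, 0.0678 with the floor at the 20th percentile and 0.0515 when features of a gene were averaged, and it was 5.35e-05 after quantile normalization. With day as the only term, it was 0.102, and leaving out an array moved it between 0.0149 and 0.274; it passed without either day 7 array and missed without control at day 3 (0.274) or citalopram at day 3 (0.0738).

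The citalopram difference of Col2a1 had opposite signs at the 2 days, 0.51 higher at day 3 and -0.22 at day 7. The change between these, -0.74 on the log2 scale, was the only one among the 10 genes whose size reached 1.5-fold, as it did in 2.98% of genes above the floor and, in this direction, 1.83%. It could not be tested, because a model with this term has no residual degree of freedom. Averaged over both days, limma gave a citalopram effect of 0.14 ± 0.16 (SE; adjusted p 0.910), and its 95% interval ran from -0.23 to 0.52.

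**Figure D2:**
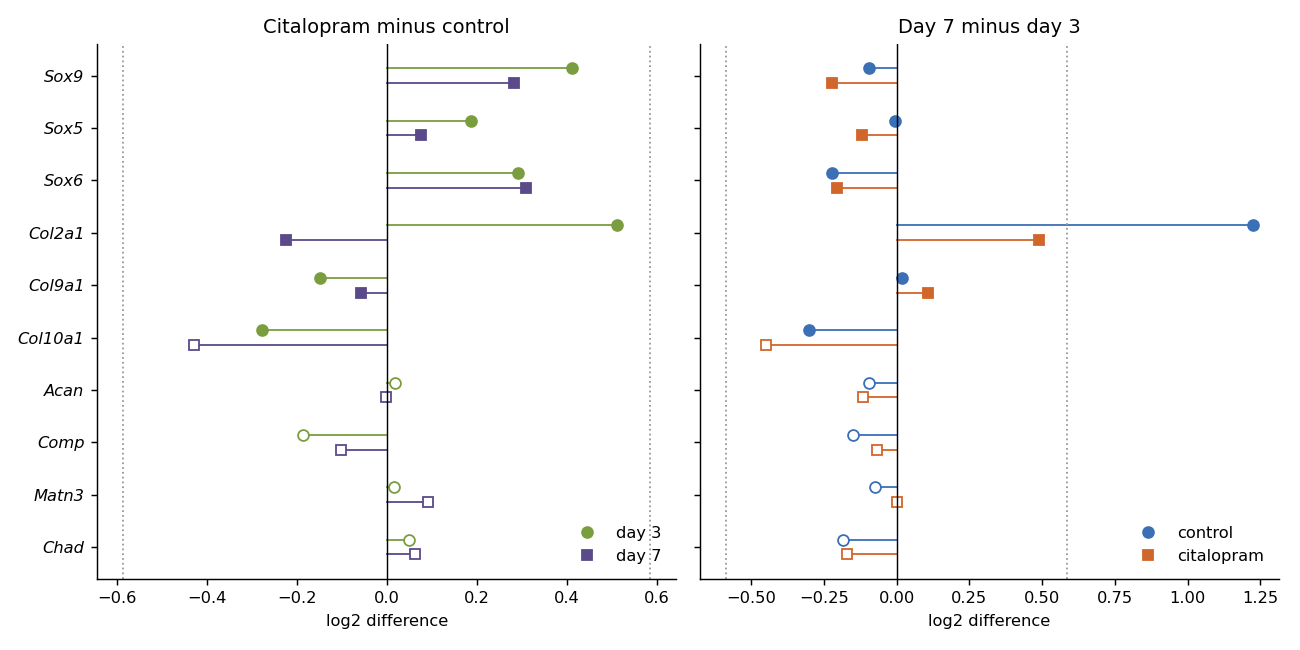
Log2 difference (x axis) of each of the 10 genes between citalopram and control (left; circles day 3, squares day 7) and between day 7 and day 3 (right; circles control, squares citalopram), 1 array per group. Open symbols mark pairs in which neither array reached the floor and dotted lines mark 1.5-fold; only Col2a1 in control, at 1.22, lies beyond a line.

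The other cartilage collagens were near the floor. Col9a1, a chain of type IX collagen, which coats type II fibrils, read 6.29 and 6.14 at day 3 and 6.30 and 6.25 at day 7, in control and citalopram. Both citalopram arrays lay below both controls, by -0.15 and -0.06, an order that 11.6% of genes shared. Its values between the days differed by 0.02 in control and 0.11 with citalopram, and these signs turned when each array was shifted to a common median (-0.09 and -0.05). Limma's adjusted p was 0.880 for citalopram and 0.798 for day.

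Col10a1, the type X collagen gene of hypertrophic chondrocytes, read 6.16 and 5.88 at day 3, in control and citalopram, and 5.86 and 5.43 at day 7. Only the first of these, the highest of the 4, reached its array's floor, so the differences that follow lie within dim signal. On the deposited values the gene entered limma's test through that array alone. This favours a lower result both for citalopram and for day, so the values and calls below are not support for a fall. Col10a1 was lower with citalopram by -0.28 at day 3 and -0.43 at day 7, and its difference from day 3 to day 7 was -0.30 in control and -0.45 with citalopram. Both day 7 arrays lay below both day 3 arrays, as in 28.8% of genes. Limma gave -0.35 ± 0.11 for citalopram (SE; adjusted p 0.392) and -0.37 ± 0.11 for day (SE; adjusted p 0.102), so neither passed. The day call was gained under each other scaling, with limma's adjusted p 0.0160 after quantile normalization, 0.0422 after cyclic loess and 0.00441 with arrays shifted to a common median.

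The 4 remaining genes encode aggrecan (Acan), the large proteoglycan that holds water in cartilage, COMP, a pentameric protein that binds collagen fibrils, matrilin 3 (Matn3), an adaptor between collagen fibrils and other matrix proteins, and chondroadherin (Chad), a leucine-rich protein that binds cells. In control and citalopram at day 3 and then at day 7, Acan read 5.40, 5.42, 5.31 and 5.31. In the same order Comp read 5.26, 5.08, 5.11 and 5.01. Matn3 read 5.16, 5.18, 5.08 and 5.18, and Chad read 5.51, 5.56, 5.33 and 5.39. Every one of these values was below its array's floor, and none of the 4 genes entered the test. Their largest difference in any comparison was -0.18, and with signal this dim neither a level nor a change can be told from background.

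Over all 10 genes, 7 were higher with citalopram at day 3 (median log2 difference 0.03, as over all genes) and 5 at day 7 (median 0.03, all genes -0.02). At day 7 against day 3, 8 of 10 were lower in control (median -0.09, where 49.7% of all genes were lower) and 7 of 10 with citalopram (median -0.12, all genes -0.05 and 61.5% lower). All 4 of these medians mix the 3 regulators with matrix genes below the floor.

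By a fixed rule, the 4 genes whose log2 profile over the 4 arrays was nearest to that of Col2a1, after each profile was centred on its mean, were Cemip, Adamts5, Lrp1 and Hspg2, among 12415 genes. Their Euclidean distances from Col2a1 were 0.17, 0.22, 0.23 and 0.25 on the log2 scale. Cemip, whose product takes part in hyaluronan breakdown, read 10.60 and 11.34 at day 3 and 11.86 and 11.71 at day 7, in control and citalopram. Lrp1, an endocytic receptor gene, read 11.53, 11.80, 12.51 and 12.22 in that order. Hspg2, the perlecan gene, read 10.09, 10.42, 11.42 and 11.22. In each of these 3 genes, as in Col2a1, the citalopram array was above control at day 3 and below it at day 7, whereas Adamts5, an aggrecanase gene, was higher with citalopram at both days (0.53 and 0.08). The same measure placed Zfp959, Klhl30, Faap24 and Dsn1 nearest to Col10a1, at distances of 0.04 each, all with values that were higher in control than with citalopram and lower at day 7. All these genes were picked for nearness to the member, so their likeness in shape follows from the choice and is no separate result. Profiles over 4 arrays that all genes share give no p-value.

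**Figure D3:**
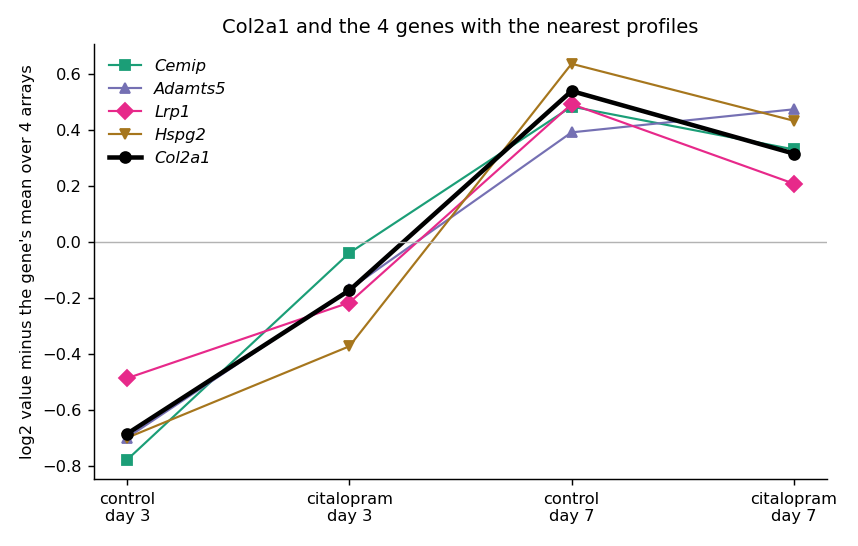
Log2 value minus the gene's own mean over the 4 arrays (y axis) in each group (x axis, 1 array each) for Col2a1 (thick black line) and the 4 genes with the nearest profiles. All 5 are lowest in control at day 3, and all but Adamts5 are highest in control at day 7.

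Other genes of the cartilage programme were read from 5 lists, which held 69 measured genes. The counts reaching the floor below stand beside 12415 of all 19938 named genes that reached it on at least 1 array. Of 19 other cartilage matrix genes, 7 reached the floor on an array, and 0 were past 1.5-fold in any comparison or called by limma. Of all genes above the floor, 0.803% were past 1.5-fold in either direction with citalopram at day 3 and 1.5% at day 7, and 2.29% between the days in control and 4.8% with citalopram. Fibromodulin (Fmod), a small proteoglycan gene that tendon also expresses, was the brightest, at 12.10 and 12.33 on day 3 and 12.43 and 12.46 on day 7. Matn2, matrilin 2, read 8.60 and 8.99 on day 3 and 9.10 and 9.45 on day 7, which did not pass (day effect 0.48 ± 0.10, SE; limma's adjusted p 0.0525). It did pass for day under each other scaling, with limma's adjusted p 0.00798 after quantile normalization, 0.0119 after cyclic loess and 0.0428 with a common median.

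Among 18 other regulators of chondrocytes, 14 reached the floor. Limma called 1 of them for day, Trps1, a GATA-type repressor of the growth plate, which rose by 0.69 ± 0.12 (SE; adjusted p 0.0229). It read 9.38 and 9.54 at day 3 and 9.93 and 10.38 at day 7. Its 2 features disagreed on the size in the citalopram arrays, 0.84 against 0.43 between the days. Arid5b, a SOX9 cofactor gene, was the brightest of this list and ranged from 11.38 to 11.54. With citalopram, 14 of the 18 were higher at day 3 (median 0.08; all genes 0.03, 59.4% higher) and 11 at day 7 (median 0.08; all genes -0.02, 45% higher), and limma called 0 for citalopram.

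Of 11 genes for growth plate signals and receptors, 10 reached the floor. Prkg2, the cGMP-dependent kinase II that acts in growth plate chondrocytes, fell from 9.88 and 9.50 at day 3 to 8.69 and 8.47 at day 7 (-1.11 ± 0.11, SE; limma's adjusted p 0.00242). Its dimmer feature differed less, by -0.36 in control and -0.28 with citalopram. Npr2, the receptor gene for C-type natriuretic peptide, lay between 10.30 and 10.75 and did not pass (limma's adjusted p for day 0.179). No other gene of this list was past 1.5-fold.

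Of 14 enzymes and transporters that build chondroitin sulphate, 12 reached the floor. With citalopram 11 of the 14 were higher at day 3 (median 0.16, all genes 0.03) and 10 were lower at day 7 (median -0.08, all genes -0.02), and 0 passed 1.5-fold or limma's threshold for citalopram. Between the days, 12 of 14 were lower with citalopram (median -0.19; all genes -0.05, 61.5% lower) and 6 of 14 in control (median 0.01; all genes 0.00, 49.7% lower). Chst11, a chondroitin sulfotransferase gene, read 9.84 and 10.01 at day 3 and 9.55 and 9.30 at day 7, a difference of -0.71 with citalopram and -0.30 in control (limma's adjusted p for day 0.0757). Limma called its day effect under each other scaling, at an adjusted p of 0.00626 (quantile), 0.0213 (loess) and 0.000818 (common median). Ugdh, which supplies UDP-glucuronic acid, lay between 12.05 and 12.26.

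Among 7 protease genes that act on cartilage matrix, limma called Adamts5 higher and Mmp13 lower at day 7. Adamts5 read 9.38 and 9.91 at day 3 and 10.47 and 10.55 at day 7 (0.87 ± 0.13, SE; limma's adjusted p 0.0153). Mmp13, the collagenase of hypertrophic cartilage, fell from 6.51 and 6.46 to 5.80 and 5.66 (-0.76 ± 0.10, SE; limma's adjusted p 0.0114), and both day 7 values were below the floor. Mmp13 thus entered the test only through the day 3 arrays, where it was higher, which favours a lower call at day 7. Adamts4, the other main aggrecanase gene, read 7.95 and 8.27 at day 3 and 7.60 and 7.37 at day 7, a difference of -0.90 with citalopram and -0.36 in control (limma's adjusted p for day 0.0574). Its day effect passed under each other scaling, where limma's adjusted p was 0.000299 (quantile), 0.00615 (loess) and 0.00017 (common median). The calls of the 5 lists for day, 1 higher and 0 lower among regulators, 0 and 1 among growth plate signals, 1 and 1 among proteases and 0 in the others, stand beside 2.8% of all genes.

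**Figure D4:**
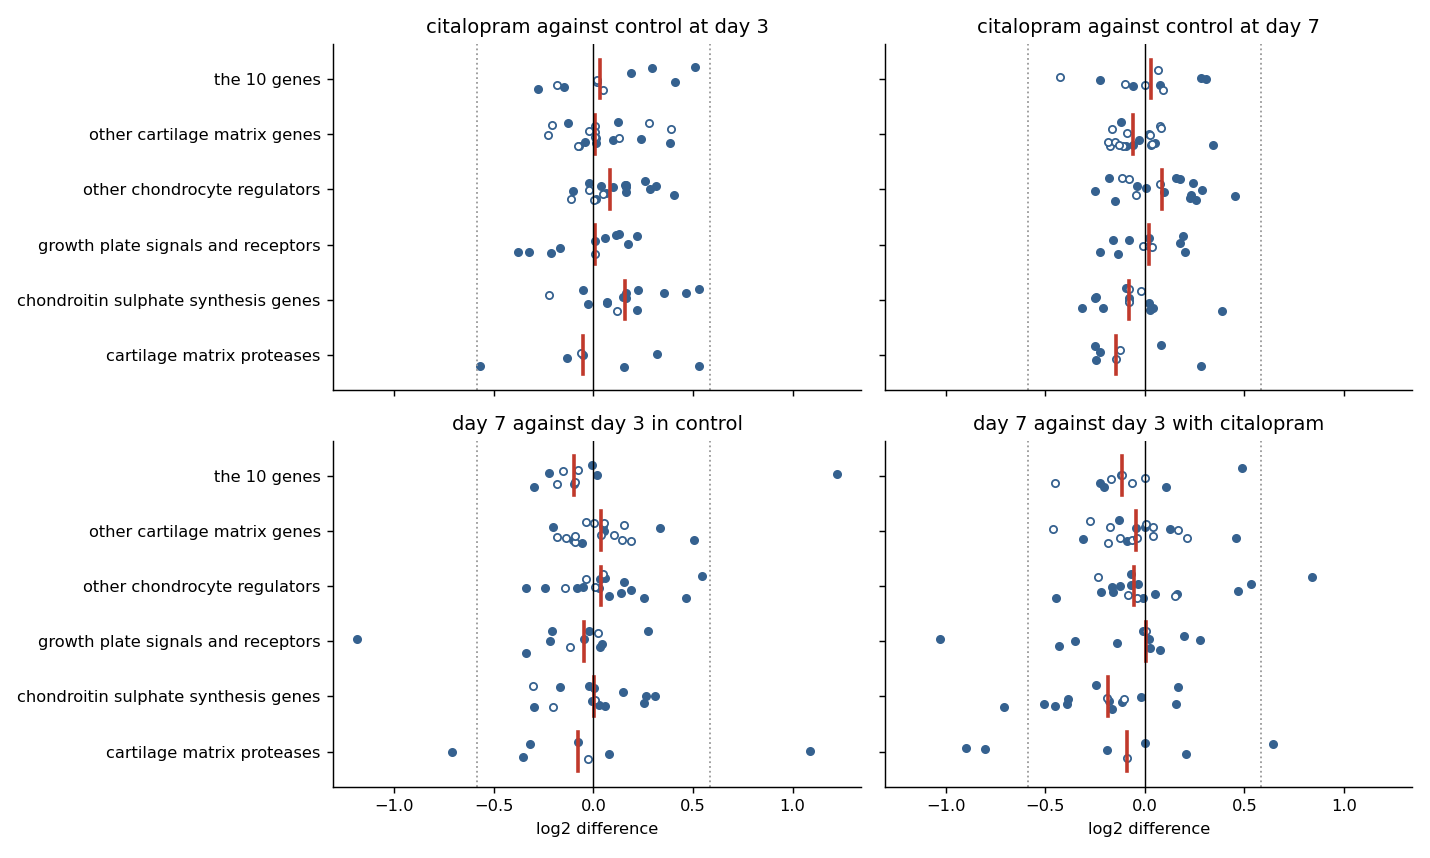
Log2 difference (x axis) of single genes (points; open where neither array reached the floor) in the 10 genes and the 5 other lists (y axis), in 4 comparisons with 1 array per group; red bars are list medians and dotted lines mark 1.5-fold. No point lies beyond a line in either comparison with citalopram, and Col2a1, Adamts5, Prkg2 and Mmp13 do so between the days in control.

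The labelled cell type was set against its markers. Of 9 measured osteoblast markers, 6 lay above the floor on all 4 arrays. These were Sparc (13.84 to 14.07), Postn (13.07 to 13.42), Col1a1 (11.92 to 12.64), Col1a2 (11.90 to 12.47), Dlx5 (10.12 to 10.59) and Sp7 (7.71 to 8.24). Limma called 1 of the 7 tested markers for day, Col1a1, which was higher by 0.57 ± 0.11 (SE, limma's adjusted p 0.0390), where it called 2.8% of all genes. The mean log2 level of all 9 was 9.55 and 9.74 at day 3 and 9.66 and 9.68 at day 7, in control and citalopram. The late markers Ibsp and Phex were below the floor throughout. Alpl lay close to the floor, at 6.07 and 6.01 at day 3 and 6.09 and 5.93 at day 7, and reached it only in the controls. Of 7 markers of tendon and ligament, 5 were above the floor on all arrays, Scx (9.02 to 9.28), Mkx, Egr1, Fmod and Tnc. Tenomodulin (Tnmd) and Thbs4 lay below it throughout, and the list's mean ran from 8.76 to 8.95. Adipocyte, myogenic, macrophage and endothelial markers were above the floor on all arrays in 1 of 7, 2 of 7, 3 of 6 and 0 of 6. Among all 19938 named genes, 11564 lay above it on all 4 arrays. Such counts, also those of osteoblast and tendon markers, therefore do not by themselves mark a cell type. In an RNA sample of a whole culture, a change in the share of cells that express a gene and a change in its level per cell cannot be told apart.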

How the data were processed

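Log2 expression values, 1 per feature and array, were used as the authors deposited them. The submitters' processing notes name Partek; in the sources used here, the correction, normalization and summarization of probe signals are not given. RNA was labelled with a whole-transcript kit, per the labels' protocols. Array medians over 35556 features ran from 6.50 to 6.66, so the arrays had not been made identical, and their number limits precision. Of the features, 21789 carried 1 symbol in the platform annotation; the feature with the highest mean stood for each gene.

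Differences of log2 values were counted at 1.5-fold where the brighter array reached the floor. Limma (version 3.58.1, R 4.3.3; lmFit and eBayes, two-sided, Benjamini-Hochberg over all tested genes) was tested on simulated data. The simulated arrays held a day effect and independent noise. They held no citalopram difference that changed between the days, so that case was not checked. Their typical noise was set smaller than every standard error limma gave for the tested genes of the 10. Calls at the larger noise of these arrays were therefore not checked either. Nothing in the labels says that arrays came from separate cultures, so any spread between these arrays may be technical. In the additive model, the 1 residual degree of freedom is the change in the citalopram difference between the days. Its p-values are set against that change, moderated by eBayes over all tested genes, and not against a spread of replicates. Python 3.11.15 was used for the rest. The members and lists were chosen with earlier results of these data known, and genes outside the 10 were named by rule: past 1.5-fold or called by limma, else the brightest until 2 were named, and the 4 nearest profiles to members whose range reached 1.5-fold; single genes of the cell type marker lists were named after their values were seen. Of the listed genes, Runx2, Pthlh, Bglap and Spp1 were not analysed here. Alternatives covered the scaling, the floor, the choice of feature and the model.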

Additional observations from a re-analysis of the deposited data

Results flagged for a closer look

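The citalopram difference of Col2a1 was above 0 at day 3 (0.51) and below 0 at day 7 (-0.22), a change of -0.74 between the days. It stands here because the single array pair of each day moved the opposite way. This difference between the days was not tested, for want of replicate arrays. The change lay between -0.78 and -0.72 in the 4 other treatments of the values (quantile normalization, cyclic loess, a common median and averaged features) and the deposited values. No other gene of the 10 that lay above the floor on all arrays had opposite signs.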

How the results depend on the processing

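With citalopram, 0 of the 10 genes passed 1.5-fold at either day or limma's threshold under any alternative run. Matn2, Adamts4 and Chst11, outside the 10, gained a day call under all 3 scalings and with the floor at the 60th percentile. For day, limma called 1 of the 10 (Col2a1) on the deposited values. It called 2 after quantile normalization and 2 after cyclic loess (Col2a1 and Col10a1), and 3 with each array shifted to a common median (Sox6 in addition). It called 0 when features were averaged, 0 without a floor, 0 with the floor at the 20th percentile and 0 with day as the only term. Leaving out each array in turn, with a single term, gave 0 to 2 calls for day and 0 to 0 for citalopram. With 3 arrays the additive model has no residual degree of freedom. Over all genes, limma's count for day was 348, against 1544 (quantile), 1018 (loess), 2294 (common median), 190 (no floor), 196 (floor at the 20th percentile), 744 (at the 60th) and 68 (day alone), and 29 to 967 with an array left out. For citalopram it was 0, against 139, 40 and 103 under the 3 scalings and 7 with the floor at the 60th percentile. The common median moved the median of all genes between the days to -0.11 in control and -0.21 with citalopram, and genes past 1.5-fold with citalopram between the days from 586 to 986. The floor at the 60th percentile took those past 1.5-fold with citalopram at day 3 from 98 to 54. Reasons for these shifts were not tested. Among the 10 genes, Col9a1 between the days, Acan and Matn3 changed sign under other scalings, as did the change in the citalopram difference of Sox6, Acan and Chad, all at sizes under 0.16. The citalopram effect of Col2a1, not called, ran from -0.47 to 0.76 over all alternatives, both ends with an array left out. No paired analysis was possible because each group has a single array and so no replicate numbers to pair. The additive model itself compares citalopram with control within each day.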
